A study of Mus musculus with 12 samples.

Results

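Chemokines are small secreted proteins that steer leukocytes, and their receptors are membrane proteins on the cells that are steered. The 31 genes described here are 22 chemokines, 7 receptors that signal and 2 receptors classed as atypical, chosen by gene symbol from a table of 34948 symbols. All 31 had a row in the table, and 29 of them passed the filter on low counts and were tested. Ccl12 and Cxcl11 were too low to test. The data are 12 RNA-seq libraries of peritoneal macrophages from mice, which form 4 groups of 3. The cells came from mice aged 8 weeks that the labels give as male, 3 days after thioglycolate (3% Brewer medium), an irritant that draws leukocytes into the peritoneum, was injected there. The genotypes are Ern1fl/fl, called WT here, in which Ern1 is flanked by loxP sites, and Mac-Ern1KO, called KO here. Ern1 encodes IRE1α, a stress sensor of the endoplasmic reticulum. The WT cells are thus floxed controls, and the labels do not name the promoter that drives Cre in KO cells. In the R300 groups macrophages took part in a 2 h phagocytosis assay with platelets that carried R300, an anti-CD42 antibody against a platelet membrane protein, and the blank groups carry the treatment label Con, which does not say whether uncoated platelets were present. The replicates are biological per the labels, and all p-values measure the spread between these libraries.

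Chemokines with a CC motif mostly attract monocytes, macrophages, eosinophils and lymphocytes, and those with a CXC motif attract neutrophils or lymphocytes. The receptors couple to inhibitory G proteins, raise calcium and activate phosphoinositide 3-kinase, and regulators of G protein signalling shorten the signal. Atypical receptors bind a ligand without activating G proteins and remove it or hold it at the surface. Macrophages are a large source of these ligands, and many of the ligand genes are driven by NF-κB or interferons.

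Several libraries stood apart before any comparison was made. Xist, which is transcribed from the inactive X chromosome of female cells, was at 143 to 590 CPM (counts scaled to the library total) in 8 libraries and at 0 to 0.0742 CPM in the 4 others, which are WT blank 3, KO blank 3, WT R300 2 and KO R300 3. The Y-linked genes Ddx3y, Uty, Kdm5d and Eif2s3y were summed as well. Their sum was lower where Xist was present, at 42.6 to 162 CPM, than in the 4 libraries lacking it, at 205 to 224 CPM, so RNA of Y genes was present in every library. Whether a library pools several mice is not given in the labels. Each group holds 2 libraries with Xist and 1 without. The R300 libraries with Xist were also closer to each other than any other pair of a group, with a median chi-square per gene of 1.46 for WT R300 1 and 3 and 1.65 for KO R300 1 and 2, against 7.89 to 14 for the 10 other pairs. Ern1 RNA was at 94.1 to 117 CPM in WT blank and at 116 to 155 CPM in KO blank libraries, and at 138 to 205 and 174 to 235 CPM after R300. Counts per whole gene do not check the deletion of an exon, so the labels of the KO libraries were not checked by them. The macrophage markers Adgre1, Cd68 and Csf1r were present in every library, and all 8 macrophage markers together held 11000 to 19100 CPM.

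Sequences upstream of the start site are shown for Ackr3 and Ccr1, receptors that passed in the R300 comparison, for Cxcr4, which shares a ligand with Ackr3 and did not pass, and for Cxcl10, the ligand with the lowest mean log2 fold change with R300. They are the 250 bases before the RefSeq start in GRCm38.p6, read 5′ to 3′ on the strand of the gene, and RefSeq promoters were matched for 22 of the 31 genes, with no entry for Ccl2, Ccl4, Ccl5, Ccl7, Ccl24, Cxcl5, Cxcl11, Cxcl16 and Ccr7. Capitals mark matches to any of 5 motifs searched on both strands: the NF-κB consensus (kB), the interferon-stimulated response element GAAANNGAAA, the cyclic AMP response element TGACGTCA, the AP-1 site TGANTCA, which reads the same on both strands, and the hypoxia core ACGTG. The window of Ackr3 lies on the plus strand at chr1:90203730-90203979, that of Ccr1 on the minus strand at chr9:123968693-123968942, that of Cxcr4 on the minus strand at chr1:128592300-128592549 and that of Cxcl10 on the minus strand at chr5:92348890-92349139.
Ackr3: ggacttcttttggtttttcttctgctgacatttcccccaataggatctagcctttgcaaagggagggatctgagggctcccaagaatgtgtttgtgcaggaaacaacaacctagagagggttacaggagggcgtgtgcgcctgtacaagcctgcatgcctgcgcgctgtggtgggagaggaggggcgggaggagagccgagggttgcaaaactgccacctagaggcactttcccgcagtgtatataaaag
Ccr1: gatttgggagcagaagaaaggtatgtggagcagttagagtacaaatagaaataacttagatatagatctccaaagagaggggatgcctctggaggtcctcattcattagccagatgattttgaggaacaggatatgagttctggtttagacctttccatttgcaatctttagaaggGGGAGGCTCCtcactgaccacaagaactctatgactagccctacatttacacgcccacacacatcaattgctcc
Cxcr4: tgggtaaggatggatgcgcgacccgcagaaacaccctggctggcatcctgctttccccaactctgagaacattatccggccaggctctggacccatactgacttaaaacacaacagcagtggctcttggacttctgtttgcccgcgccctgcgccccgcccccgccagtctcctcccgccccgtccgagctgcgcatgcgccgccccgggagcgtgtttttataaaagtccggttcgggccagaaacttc
Cxcl10: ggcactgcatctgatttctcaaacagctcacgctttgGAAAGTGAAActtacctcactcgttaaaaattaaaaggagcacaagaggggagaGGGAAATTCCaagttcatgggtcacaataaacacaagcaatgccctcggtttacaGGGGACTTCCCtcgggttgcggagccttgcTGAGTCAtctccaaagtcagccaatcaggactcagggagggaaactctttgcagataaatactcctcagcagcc

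The Ccr1 window holds 1 kB match, and none of the 5 motifs matched in the Ackr3 or Cxcr4 window. In the Cxcl10 window the capitals are, in order, an interferon-stimulated response element, a kB match, a pair of overlapping kB matches and an AP-1 site. A kB match was present in 8 of the 22 matched genes (36.4%), namely Ccl9, Ccr1, Ccr3, Ccrl2, Cxcl1, Cxcl2, Cxcl3 and Cxcl10, and in 8.23% of the 27025 genes with a listed window (7.25% of all windows of that length). The interferon-stimulated response element was present upstream of Cxcl10 and Cxcl14 (9.09% of the matched genes against 3.46% of all genes listed). AP-1 sites were upstream of Ccl9, Ccr3 and Cxcl10 (13.6% against 7.82%), the hypoxia core was upstream of Ccrl2, Cmklr1, Cxcl1 and Cxcl3 (18.2% against 18.5%), and the cyclic AMP response element matched in none of the 22 and in 1.77% of all genes listed. A match is a string of letters and not a bound site. The mean log2 fold changes with R300 ranged from -1.35 to 0.92 over the 8 genes with a kB match and from -1.31 to 3.63 over the 13 other tested genes with a listed window, with a median of 0.07 in each set.

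By level per length, the CXCR2 ligand Cxcl2, which attracts neutrophils, led with a mean of 379 CPM per kilobase of exon over the 12 libraries. The CCR1 ligands Ccl6 and Ccl9 followed with 338 and 172 CPM per kilobase, and Cxcl1, another CXCR2 ligand, with 77.0. These ligands varied so much between libraries (136 to 991 for Cxcl2, 182 to 585 for Ccl6, 10.1 to 242 for Cxcl1) that neighbours in this order overlapped. The most abundant receptors were the atypical receptor Ccrl2 (mean 76.5), Cxcr4 (71.4), the chemerin receptor Cmklr1 (69.0) and Ccr1 (65.6 CPM per kilobase), and their ranges overlapped too. Ccr7 had a mean of 13.5, Ackr3 of 2.33 and Cxcr2 of 0.507 CPM per kilobase. At the low end were the CXCR3 ligands Cxcl9 (0.124) and Cxcl11 (0.0137). The genes lie mostly in clusters, with 11 of 31 on chromosome 11 and 9 on chromosome 5. Exons of Cxcl10, Cxcl11 and Cxcl16 overlap a gene on the opposite strand over 5.91%, 41.7% and 18.3% of their length, and since the library kit does not mark the strand, reads there cannot be assigned to either gene.

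Whether contact with R300-coated platelets changed these genes was asked within each genotype and as the mean of both. The receptors Ccr7, Ccr1 and Ackr3 rose with R300 in the mean of both genotypes, Ccr7 also rose in each genotype alone, and no ligand passed the test. In the mean of both genotypes 3 of the 29 tested members passed, all higher, where 3.64% of the 16546 genes tested did (2.43% higher and 1.21% lower). Within WT, 1 of 29 passed, also higher, against 0.623% of genes in either direction and 0.55% higher. Within KO it was 1 of 29, again higher, against 0.834% of genes in either direction and 0.695% higher. The median log2 fold change of the 29 members was 0.08 in the mean of both genotypes, against 0.00 over all genes. In bulk RNA, fewer cells of a type and less RNA per cell cannot be told apart.

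Ccr7 guides dendritic cells and lymphocytes toward Ccl19 and Ccl21 in lymphoid tissue, and its gene lies on the minus strand of chromosome 11 (GRCm38, 99144196 to 99155077). Ccr7 stood at 9.91, 17.3 and 11.1 CPM in WT blank libraries 1 to 3 and 47.1, 31.1 and 47.3 CPM in WT R300 libraries. In KO cells it was 11.2, 18.7 and 10.8 CPM in blank and 46.1, 42.0 and 27.0 CPM in R300 libraries. All 6 R300 libraries lay above all 6 blank libraries. Ccr7 rose 3.04-fold in the mean of both genotypes (log2 fold change 1.60, SE 0.21, adjusted p = 0.00213, edgeR's quasi-likelihood test with Benjamini-Hochberg adjustment). It rose by 1.71 on the log2 scale in WT (SE 0.30, adjusted p = 0.0351, edgeR) and by 1.50 in KO (SE 0.30, adjusted p = 0.049, edgeR). The mean response passed in all 20 alternative fits, with adjusted p of 0.0281 at most. The calls within a genotype were weaker: the WT call was kept in 11 and the KO call in 6 of 21 alternative fits. Leaving out 1 library ended the WT call for 7 of the 12 libraries (WT blank 1 and 3, WT R300 1 and 3, KO blank 1, KO R300 1 and 2) and the KO call for 8 (WT blank 1 and 3, WT R300 1 and 3, KO blank 1 and 3, KO R300 1 and 2). Both calls were also lost without a filter on low counts, with only the groups compared and with 1 library of each close R300 pair (adjusted p = 0.0555, 0.0851 and 0.282 in WT and 0.089, 0.15 and 0.31 in KO, edgeR). The KO call was further lost with RLE factors, library totals alone, a replicate block and the libraries with Xist alone (adjusted p = 0.0519, 0.0534, 0.0619 and 0.0615, edgeR).

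Ccr1 is the receptor for Ccl3, Ccl5, Ccl6 and Ccl9 on monocytes and macrophages, and its gene lies on the minus strand of chromosome 9 (GRCm38, 123962124 to 123968692). It was at 117, 112 and 113 CPM in WT blank and at 261, 171 and 261 CPM in WT R300 libraries. In KO cells it was at 138, 178 and 114 CPM in blank and at 289, 289 and 186 CPM in R300 libraries. Within each genotype every R300 library was above every blank library. Ccr1 rose 1.90-fold in the mean of both genotypes (log2 fold change 0.92, SE 0.16, adjusted p = 0.00791, edgeR). Within a genotype it missed the threshold, with a log2 fold change of 1.01 in WT (SE 0.22, adjusted p = 0.0891, edgeR) and 0.83 in KO (SE 0.22, adjusted p = 0.151, edgeR). The mean response passed in 19 of 20 alternative fits and missed with 1 library of each close R300 pair left out (adjusted p = 0.0783, edgeR).

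Ackr3 is an atypical receptor that takes up Cxcl12, the ligand it shares with Cxcr4, and its gene lies on the plus strand of chromosome 1 (GRCm38, 90203980 to 90216751). It was at 1.34, 0.963 and 0 CPM in WT blank and at 10.2, 1.35 and 12.2 CPM in WT R300 libraries. In KO cells it was at 2.99, 1.02 and 0.273 CPM in blank and at 28.5, 32.1 and 2.67 CPM in R300 libraries. The 4 R300 libraries with Xist were far above all others, while the 2 without Xist, WT R300 2 and KO R300 3, lay below the highest blank library, and WT R300 2 cleared WT blank 1 only by 1.35 to 1.34 CPM. Each of these 2 was still above the blank library without Xist of its own genotype, and the log2 ratio of the KO pair was 3.29 against 3.92 between the KO libraries with Xist. Ackr3 rose 12.4-fold in the mean of both genotypes (log2 fold change 3.63, SE 0.87, adjusted p = 0.0453, edgeR), and the values within WT (3.37, SE 1.25, adjusted p = 0.427, edgeR) and KO (3.90, SE 1.22, adjusted p = 0.256, edgeR) missed the threshold. The mean call was lost without any 1 of 10 libraries and kept only without WT R300 2 or KO R300 3, with adjusted p from 0.0217 to 0.118 (edgeR). A term for the libraries without Xist gave 3.66 (SE 0.31, adjusted p = 7.28e-05, edgeR), 1 library of each close pair 3.19 (adjusted p = 0.262, edgeR).

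Cxcr4, the signalling receptor for Cxcl12, was at 68.9, 140 and 98.7 CPM in WT blank and at 182, 121 and 161 CPM in WT R300 libraries. In KO cells it was at 69.0, 87.8 and 114 CPM in blank and at 199, 194 and 113 CPM in R300 libraries. The groups overlapped in both genotypes. The log2 fold change in the mean of both genotypes was 0.75 (SE 0.21, adjusted p = 0.0832, edgeR). It passed in 4 of 20 alternative fits, namely DESeq2, the libraries with Xist alone, and the fits without WT blank 2 or without KO R300 3. With the libraries with Xist alone, each R300 group is only its close pair, so that p-value may be too small. Between libraries with Xist the log2 ratio was 0.71 in WT and 1.33 in KO, and between those without it 0.29 and -0.01. The 4 other signalling receptors and Ccrl2 did not pass. Their mean log2 fold changes were 0.27 for the eosinophil receptor Ccr3, 0.15 for the neutrophil receptor Cxcr2, -0.35 for Cxcr3, the receptor of interferon-induced chemokines on T cells, -0.09 for Cmklr1 and -0.04 for Ccrl2, which binds chemerin. Among the 9 receptors chosen here, 2 of 7 signalling and 1 of 2 atypical receptors rose in the mean of both genotypes and none fell. Over all genes 2.43% rose and 1.21% fell. Of 9 other chemokine receptors tested, 0 rose and 1, Cx3cr1, fell.

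**Figure D1:**
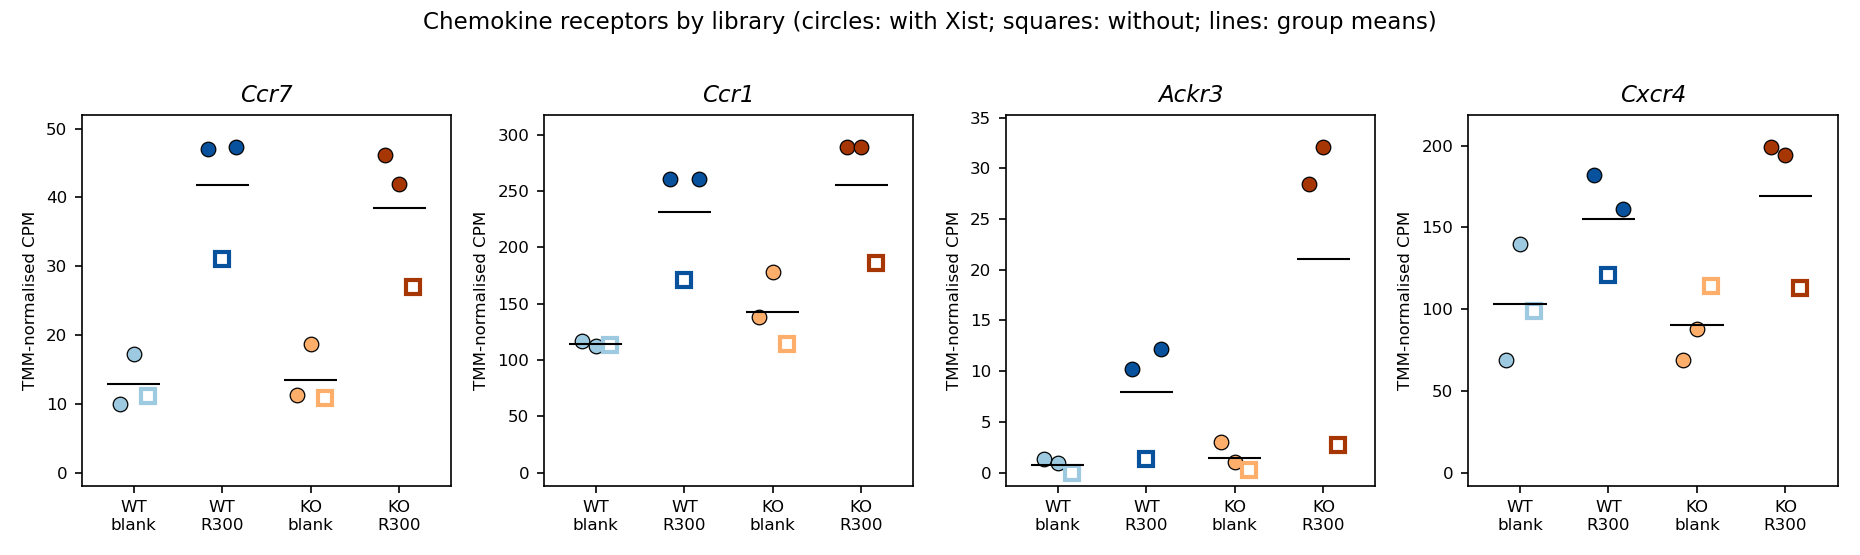
CPM (vertical axis, linear, 1 panel per gene) of 4 receptors in the 12 libraries by group, with circles for libraries with Xist, squares for those without and a line for each group mean. The Ccr7 points of all R300 libraries sit above all blank libraries, the Ccr1 points do so within each genotype, and the raised Ackr3 points are the 4 R300 libraries with Xist.

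Other cell types of the peritoneum were measured beside these receptors. The 5 dendritic cell markers, of a cell type that expresses Ccr7, together held 9.30 to 15.9 CPM in WT blank and 12.6 to 13.6 CPM in WT R300 libraries. The KO groups had 12.2 to 17.0 CPM before and 12.6 to 14.7 CPM after R300, so the sums overlapped. Of the 5 markers alone, 1 was higher with R300 without overlap in KO, namely Clec9a at 1.48 CPM or less, and none was lower. In WT all 5 overlapped. The 6 B cell markers held 62.7 to 268 CPM before and 55.6 to 77.4 CPM after R300 in WT. In KO they held 102 to 241 and 68.1 to 116 CPM, so the sums overlapped in both genotypes. All 6 had a negative mean log2 fold change with R300, and 0 passed. Of the 7 T and NK cell markers 6 were tested, all 6 had a negative value, and 0 passed. The 5 markers of recruited monocytes held 205 to 384 CPM before and 162 to 194 CPM after R300 in WT. In KO they held 230 to 369 and 212 to 225 CPM, so these sums were lower without overlap in both genotypes. They include the chemokine receptors Ccr2 and Cx3cr1. Cx3cr1 was lower after R300 without overlap in both genotypes. Ccr2 was so only in WT, at 47.7 to 95.4 CPM before and 20 to 44.3 CPM after. Ly6c2, Chil3 and Plac8 overlapped in both genotypes, with Chil3 in WT at 109 to 174 CPM before and 116 to 117 CPM after. Whether fewer monocytes were present was not tested. The 8 mesothelial and fibroblast markers held 146 to 651 CPM before and 189 to 1390 CPM after R300 in WT, and 352 to 454 and 351 to 806 CPM in KO. The 10 eosinophil and mast cell markers held 13.0 to 21.8 CPM in WT blank and 26.5 to 31.9 in WT R300, then 21.0 to 38.6 in KO blank and 34.1 to 54.8 CPM in KO R300 libraries, with the eosinophil markers Prg2 and Epx at 0 in some libraries. The mast cell protease genes Mcpt4 and Tpsb2 rose with R300 in the mean of both genotypes (log2 fold changes 1.14 and 0.88, adjusted p = 0.0428 and 0.0231, edgeR). The 7 platelet markers held 11.5 to 15.4 CPM in blank and 11.8 to 19.0 CPM in R300 libraries, and Gp9 and Gp6 were at 0 in some libraries. The part of these cells in the receptor changes was not tested.

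None of the 20 tested ligands passed the test in any comparison. The CCR2 ligands Ccl2 and Ccl7, which draw monocytes from blood, had mean log2 fold changes with R300 of 0.81 and 0.66. Ccl8, which was listed beside them, had -0.44. Ccl2 was at 24.1, 12.5 and 9.01 CPM in WT blank and at 39.5, 7.03 and 40.7 CPM in WT R300 libraries. In KO cells Ccl2 was at 24.1, 51.0 and 13.8 CPM in blank and at 63.8, 67.2 and 11.1 CPM in R300 libraries. The R300 libraries without Xist were thus the lowest of their groups, and blank and R300 libraries overlapped in both genotypes.

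Ccl3 and Ccl4, chemokines that activated macrophages release, were lower on average with R300 but did not pass. Ccl3 was at 20.6, 31 and 23.4 CPM in WT blank and at 14.1, 15.5 and 14.2 CPM in WT R300 libraries, which did not overlap. In KO cells Ccl3 was at 24.6, 151 and 18.3 CPM in blank and at 22.7, 20.4 and 10.7 CPM in R300 libraries, and the groups overlapped. The mean log2 fold change of Ccl3 was -1.31 (SE 0.46, adjusted p = 0.177, edgeR). It was -0.52 without KO blank 2, the library at 151 CPM (adjusted p = 0.235, edgeR). Ccl4 had -1.13 (SE 0.55, adjusted p = 0.361, edgeR) and was at 87.8 CPM in KO blank 2 against 8.19 and 9.20 CPM in the other KO blank libraries. Ccl5, Ccl6 and Ccl9, which bind CCR1, had mean log2 fold changes of -0.13, -0.13 and 0.08, with SEs of 0.21, 0.30 and 0.20. For the CCR4 ligands Ccl17 and Ccl22, which attract regulatory and type 2 helper T cells, the values were 0.83 (SE 0.59) and -0.07 (SE 0.19), and for the CCR3 ligand Ccl24 0.74 (SE 0.56).

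The neutrophil attractants Cxcl1, Cxcl2 and Cxcl3 had mean log2 fold changes of 0.06, -0.32 and 0.15, each smaller than its SE of 0.54, 0.44 and 0.61. The fourth CXCR2 ligand, Cxcl5, was at 1.43, 1.07 and 0.445 CPM in WT blank and at 3.13, 0.312 and 4.24 CPM in WT R300 libraries. In KO cells Cxcl5 was at 1.23, 2.03 and 0.328 CPM in blank and at 2.72, 3.97 and 0.731 CPM in R300 libraries. Its mean log2 fold change was 1.21 (SE 0.63, adjusted p = 0.398, edgeR). A term for the libraries without Xist gave 1.09 (SE 0.27, adjusted p = 0.0332, edgeR), and the libraries with Xist alone gave 1.30 (SE 0.27, adjusted p = 0.0348, edgeR). In the latter fit each R300 group is only its close pair, so the p-value may be too small. Cxcl5 was described in every library because of these values, after they were seen.

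Cxcl10, an interferon-induced ligand of CXCR3, was at 31.6, 89.8 and 51.3 CPM in WT blank and at 20.1, 40.4 and 16.5 CPM in WT R300 libraries. In KO cells it was at 15.2, 81.6 and 36.9 CPM in blank and at 8.24, 8.78 and 29.3 CPM in R300 libraries. The groups overlapped, and the mean log2 fold change was -1.35 (SE 0.48, adjusted p = 0.181, edgeR). Cxcl9, from the same interferon-induced set, had 0.07 (SE 0.48). Cxcl14, which attracts monocytes and dendritic cells, was at 21.9, 11.7 and 21.2 CPM in WT blank and at 43.6, 24.6 and 45.0 CPM in WT R300 libraries, without overlap. In KO cells Cxcl14 was at 49.5, 10.4 and 25.5 CPM in blank and at 96.2, 90.9 and 29.7 CPM in R300 libraries, with overlap. Its mean log2 fold change was 1.20 (SE 0.39, adjusted p = 0.145, edgeR). Cxcl16, a membrane-bound ligand of CXCR6 that also takes up oxidised lipoprotein, was at 216, 327 and 254 CPM in WT blank and at 195, 247 and 195 CPM in WT R300 libraries. In KO cells Cxcl16 was at 178, 308 and 237 CPM in blank and at 145, 157 and 225 CPM in R300 libraries, and the groups overlapped in both genotypes. Its mean log2 fold change was -0.39 (SE 0.16, adjusted p = 0.28, edgeR), and that of Cxcl12 was 0.44 (SE 0.38). DESeq2, which called 7.39% of genes in this comparison, also called Ccl3, Cxcl10 and Cxcl14 (adjusted p = 0.0369, 0.0382 and 0.0276), so for these 3 ligands the call depended on the tool.

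**Figure D2:**
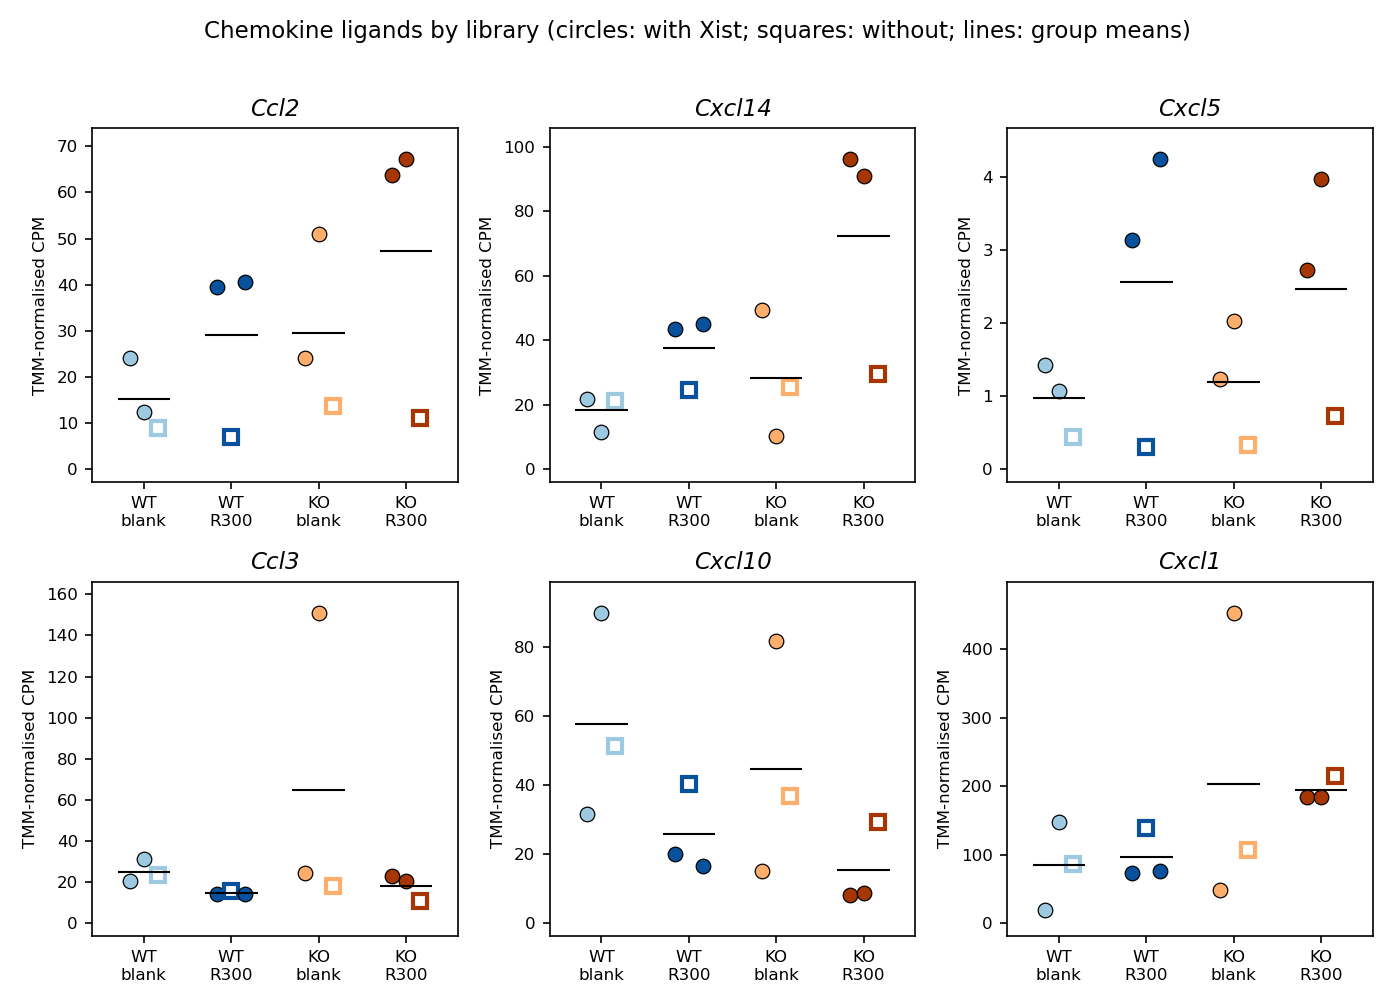
CPM (vertical axis, linear, 1 panel per gene) of 6 ligands in the 12 libraries by group, with circles for libraries with Xist, squares for those without and a line for each group mean. The panels show KO blank 2 far above its group for Ccl3 (151 CPM), and R300 and blank points that overlap for Cxcl10 in both genotypes.

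Across roles, 5 of 29 members had WT R300 and WT blank libraries that did not overlap: Ccr7, Ccr1, Ackr3 and Cxcl14 were higher and Ccl3 was lower, where 6.74% of genes were higher and 6.09% lower in that way. In KO, Ccr7 and Ccr1 were higher without overlap (6.64% of genes were) and no member was lower (5.68% of genes were). An unadjusted p under 0.05 was found for 3 of 29 members in WT against 8.72% of genes, for 7 in KO against 8.78% and for 8 in the mean of both genotypes against 15.6%. DESeq2 called Ccr7 and Ccr1 in WT (2.15% of genes) and in KO (2.65%). With a term for the libraries without Xist, Ccr7, Ccr1 and Ackr3 passed in WT (2.1% of genes), in KO (2.72%) and, with Cxcl5, in the mean of both (9.02%). The libraries with Xist alone gave the same 3 receptors in WT (1.46% of genes), Ccr1 and Ackr3 in KO (1.74%), and these 3 with Cxcr4 and Cxcl5 in the mean (6.04%). In that fit each R300 group is only its close pair of libraries, so its p-values may be too small. A log2 fold change of at least 1 in size was seen for 7 of the 29 members and for 4.61% of genes.

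**Figure D3:**
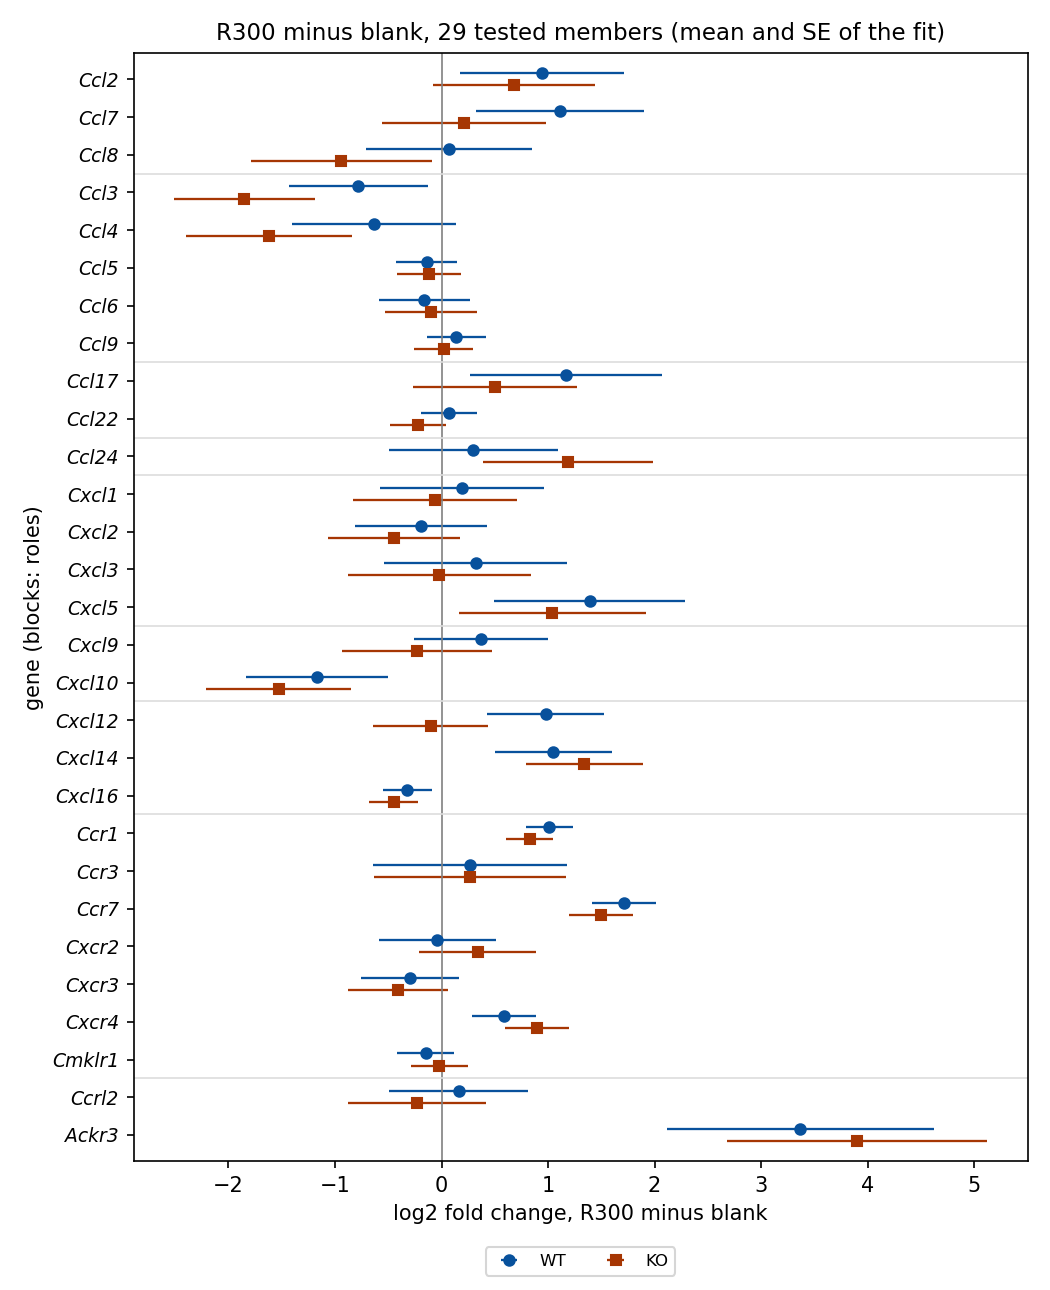
Log2 fold change of R300 over blank (horizontal axis) for the 29 tested members in WT and KO, with bars of 1 SE from the edgeR fit, in blocks by role. Ccr7, Ccr1 and Ackr3 lie to the right of 0 in both genotypes, and most ligands have a bar that reaches or crosses 0 in at least 1 genotype.

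The R300 responses were also taken apart by Xist. For Ccr7 the log2 ratio of R300 over blank was 1.79 in WT and 1.56 in KO between libraries with Xist, and 1.48 and 1.32 between those without. For Ccr1 it was 1.18 and 0.87 with, and 0.59 and 0.71 without. For Ccl2 it was 1.13 in WT and 0.80 in KO with Xist, and -0.36 and -0.31 without, so the sign turned in both genotypes. Ccl6, Ccl7, Ccl22, Cxcl1, Cxcl2 and Ccrl2 also turned sign in both genotypes, which makes 7 of the 29 members with Ccl2. The share over all genes was not counted, so this count does not set the members apart. Some of these ratios lay near 0, such as -0.04 for Ccl22 in WT with Xist and 0.05 for Ccl6 in WT without. The difference in response between libraries with and without Xist was tested. There 3 of the 29 members had an unadjusted p under 0.05, as had 994 of the 16546 genes tested. The 3 members were Ccl2 (log2 difference 1.30, SE 0.45), Ccl22 (-0.47, SE 0.18) and Cxcr4 (0.89, SE 0.36). None of the 29 passed after adjustment (adjusted p = 0.703, 0.757 and 0.793, edgeR, with 6 residual degrees of freedom), where 0.0302% of genes did. The 1 library without Xist in each group leaves these values without replicates of their own.

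The design also asked whether loss of Ern1 in KO cells changed these genes. No member passed in blank cells, in R300 cells or in the mean of both, where 0%, 0% and 0.00604% of genes passed (edgeR), and DESeq2, which called 0.0242%, 0.0846% and 0.302% of genes, called none of the members either. At an unadjusted p under 0.05 there were 1, 1 and 3 members, against 1.09%, 1.96% and 2.80% of genes, the 3 in the mean being Ccl5, Ccl17 and Cxcl9. Ccl5, which attracts T cells and monocytes, was the member with the smallest p. It was at 10.9, 12.2 and 10.3 CPM in WT blank and at 3.95, 9.03 and 7.43 CPM in KO blank libraries. After R300 it was at 9.96, 10.0 and 10.5 CPM in WT and at 5.24, 4.67 and 8.87 CPM in KO libraries. Every KO library was below every WT library of the same treatment, as was true of 1.96% of genes in blank and 3.87% in R300 cells. The log2 fold change of Ccl5 in KO over WT was -0.71 in blank cells (SE 0.30), -0.69 in R300 cells (SE 0.30) and -0.70 in the mean (SE 0.21, unadjusted p = 0.00644, adjusted p = 1.00, edgeR). Same-numbered WT and KO blank libraries deviated together from their groups. In a fit of the blank groups alone with the replicate number as a block, which was chosen after seeing the data, 0% of 15809 genes passed. There 4 of 28 members had an unadjusted p under 0.05, against 4.28% of genes: Cxcl1 (log2 fold change 1.09, SE 0.26), Ccl5 (-0.77, SE 0.22), Ccl22 (0.30, SE 0.09) and Cxcl10 (-0.54, SE 0.17), each with an adjusted p of 0.989 (edgeR).

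Other members with KO and WT libraries that did not overlap after R300 were Cxcl1 and Cxcr2, higher in KO (4.03% of genes were), and Cxcl9, lower in KO. Cxcl1 was at 73.7, 139 and 76.2 CPM in WT R300 and at 184, 184 and 215 CPM in KO R300 libraries. In blank cells Cxcl1 was at 19.0, 148 and 86.3 CPM in WT and at 48.3, 453 and 107 CPM in KO libraries, and the groups overlapped. Its mean log2 fold change of KO over WT was 1.14 (SE 0.55, adjusted p = 1.00, edgeR), or 0.45 without KO blank 2. Ccl8 was at 0.476, 1.25 and 0.704 CPM in WT blank and at 0.0598, 0.809 and 0.655 CPM in KO blank libraries, and at 1.07, 0.346 and 1.15 CPM in WT R300 against 0.0690, 0.212 and 0.509 CPM in KO R300 libraries. Its log2 fold change of KO over WT was -1.68 after R300 (SE 0.85) and -1.18 in the mean (SE 0.58), with overlap in both treatments. Cxcl14 had 0.94 after R300 (SE 0.55). In blank cells Ccl3 and Ccl7 had 1.37 (SE 0.65) and 1.39 (SE 0.79), and without KO blank 2 these were -0.22 and 0.24. Ccl7 was at 7.09, 5.05 and 2.93 CPM in WT blank and at 5.80, 27.6 and 6.01 CPM in KO blank libraries, with KO blank 2 the highest. Leaving out KO blank 2 keeps its same-numbered WT library. In the fit of the blank groups alone with the replicate number as a block, Ccl3 had 0.74 (SE 0.51) and Ccl7 1.11 (SE 0.52). The adjusted p was 1.00 for each value in the fit of all 12 libraries and 0.989 for both in the block fit (edgeR).

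**Figure D4:**
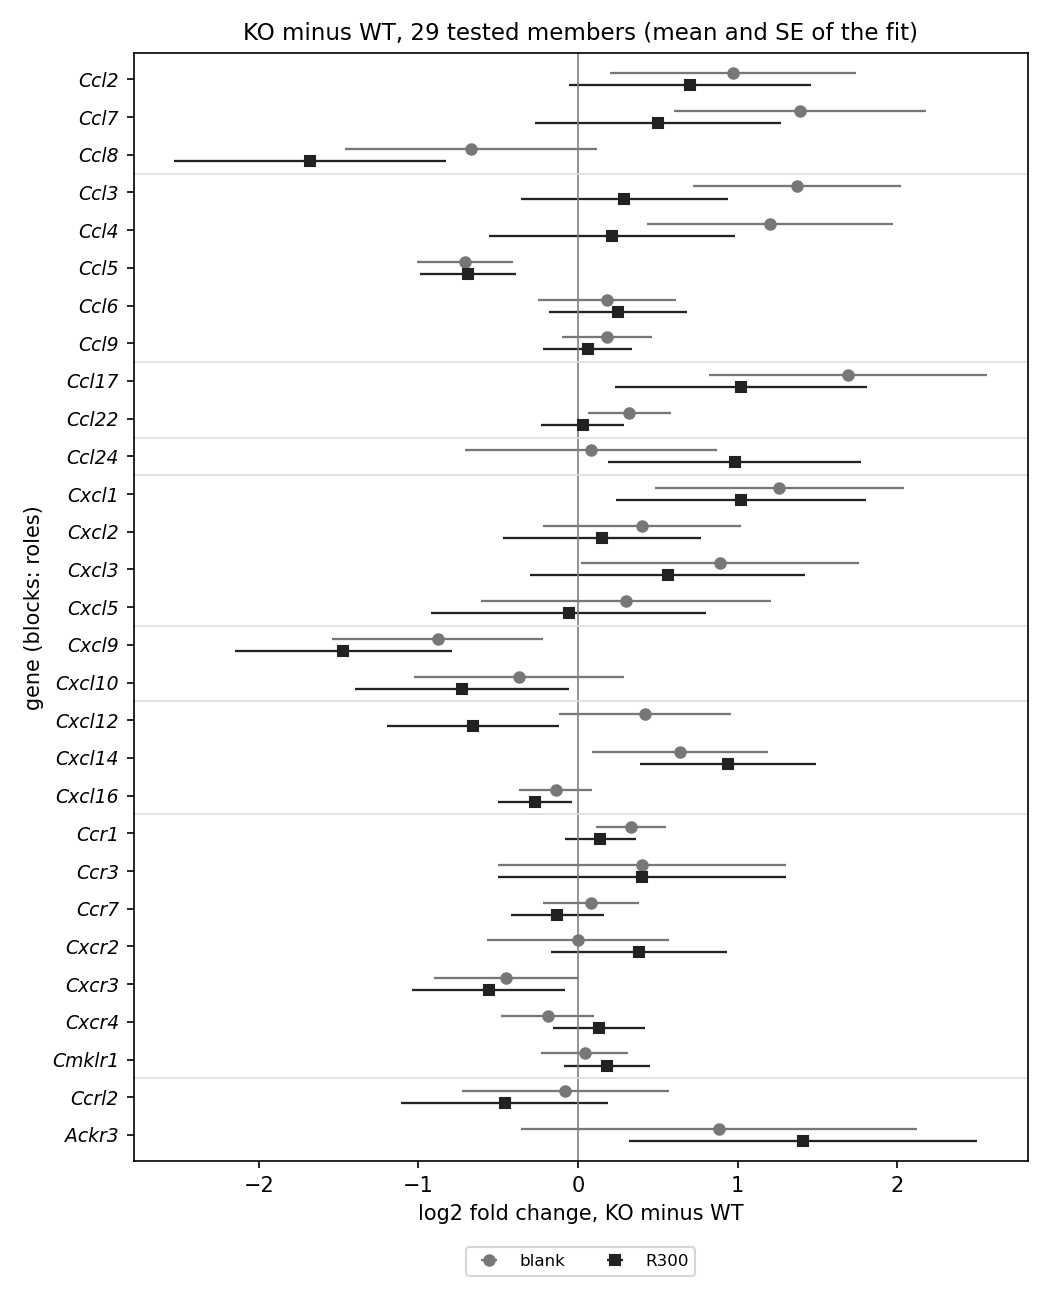
Log2 fold change of KO over WT (horizontal axis) for the 29 tested members in blank and in R300 cells, with bars of 1 SE from the edgeR fit, in blocks by role. Ccl5 is the member with the smallest p, at -0.71 and -0.69, and none of the members passed the test.

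The R300 responses of the genotypes did not differ for any member after adjustment (0% of genes passed, edgeR and DESeq2), and at an unadjusted p under 0.05 no member did, against 0.574% of genes. The difference of the responses, KO minus WT, was -0.21 for Ccr7 (SE 0.42), -0.18 for Ccr1 (SE 0.31), 0.31 for Cxcr4 (SE 0.42) and 0.53 for Ackr3 (SE 1.65) on the log2 scale. With SEs of this size the test does not show that the genotypes responded alike. The members with the smallest p were Cxcl12 (-1.08, SE 0.77), Ccl3 (-1.07, SE 0.91) and Ccl4 (-0.99, SE 1.09). Without KO blank 2 the values of Ccl3 and Ccl4 turned to 0.52 and 1.02. Cxcl12, which retains leukocytes and stem cells in bone marrow, was at 5.23, 1.74 and 2.37 CPM in WT blank and at 5.64, 2.63 and 10.0 CPM in WT R300 libraries. In KO cells Cxcl12 was at 3.38, 2.86 and 6.17 CPM before and at 2.38, 5.28 and 3.91 CPM after R300. The 8 mesothelial and fibroblast markers held 651, 146 and 177 CPM in WT blank and 692, 189 and 1390 CPM in WT R300 libraries. In KO they held 454, 352 and 369 CPM before and 363, 806 and 351 CPM after R300. Their difference of responses was negative for all 8, with a median of -0.67, and 0 passed. The part of such cells in the Cxcl12 values was not tested. Lyz2, the lysozyme gene of macrophages, was the only gene of the 16546 to pass edgeR's test between genotypes in the mean of both treatments. It was at 12200 to 13500 CPM in WT and at 6060 to 7320 CPM in KO libraries (log2 fold change -0.89, adjusted p = 0.00508, edgeR). Whether this difference comes from the loss of Ern1 was not tested, and the labels do not name the promoter that drives Cre.

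Genes around the chemokine system were counted from lists by function, in the mean R300 response, where 3.64% of all genes passed (2.43% higher, 1.21% lower). Counts of 0 to 2 in lists of this size do not set a list apart from all genes. Of 16 other chemokines 7 were tested and none passed, and of 15 other chemokine receptors 9 were tested, none rose and 1 fell. That receptor was Cx3cr1, which binds fractalkine on monocytes and macrophages (log2 fold change -1.50, SE 0.30, adjusted p = 0.0203, edgeR). Cx3cr1 was at 51.4, 82.1 and 31.7 CPM in WT blank and at 15.7, 24.7 and 13.3 CPM in WT R300 libraries, while KO cells had 104, 39.3 and 48.2 CPM before and 21.3, 21.0 and 31.9 CPM after R300, without overlap in either genotype. Of 10 other chemoattractant receptors and the chemerin gene 8 were tested, none rose and 1 fell, the complement C3a receptor C3ar1 (-0.50, SE 0.08, adjusted p = 0.00611, edgeR). C3ar1 was at 547 to 647 CPM in the 6 blank and at 397 to 484 CPM in the 6 R300 libraries, which did not overlap. Of 26 genes that carry the signal of chemokine receptors 1 rose and 1 fell. Rgs16, which shortens G protein signals, rose (1.93, SE 0.41, adjusted p = 0.0266, edgeR), and Pik3cg, the phosphoinositide 3-kinase subunit downstream of these receptors, fell (-0.61, SE 0.14, adjusted p = 0.0378, edgeR). Of 21 genes that control NF-κB or the decay of chemokine mRNA, Tnf, an inducer of many chemokines, fell (-1.69, SE 0.33, adjusted p = 0.0178, edgeR) and no other gene passed, while 9 of the 21 had an unadjusted p under 0.05, against 15.6% of all genes. Il1b, which encodes the inflammatory cytokine interleukin-1β, had the opposite sign and is described because of its values. It was at 46, 163 and 34.9 CPM in WT blank and at 472, 221 and 481 CPM in WT R300 libraries. In KO cells Il1b was at 79.5, 276 and 43.2 CPM in blank and at 890, 800 and 224 CPM in R300 libraries. The groups did not overlap in WT and overlapped in KO. The mean log2 fold change of Il1b was 2.26 (SE 0.57, adjusted p = 0.055, edgeR), just outside the threshold, and it passed in 8 of 20 alternative fits. Among alternative fits C3ar1 passed in 19 of 20, Tnf and Cx3cr1 in 14, Pik3cg in 11 and Rgs16 in 10. With 1 library left out, Tnf and Cx3cr1 were lost without WT R300 1 or 3 or KO R300 1 or 2. Pik3cg passed in 4 of 12 such fits (without WT blank 1 or 3, WT R300 2 or KO blank 3) and Rgs16 in 3 (without KO R300 3, WT R300 2 or WT blank 1). Of the 8 macrophage markers, 1 rose in the mean R300 response and 0 fell. The marker Cd14 was at 667, 1450 and 597 CPM in WT blank and at 2650, 1480 and 2630 CPM in WT R300 libraries. In KO cells Cd14 was at 797, 1280 and 524 CPM in blank and at 3460, 3270 and 1550 CPM in R300 libraries. These groups did not overlap in either genotype.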

How the data were processed

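Messenger RNA from peritoneal macrophages was measured by RNA sequencing in 12 libraries. The authors deposited raw counts per gene symbol. HISAT2 2 and featureCounts 2.0.3 were used on the mm10 genome, per the submitters' processing notes, which also name fastp 0.23.4, FastQC 0.12.1 and DESeq2 1.42.0. How reads on overlapping genes were counted is not given in the sources used here. Library totals were 21765586 to 44273655 counts. Of 35050 rows, 102 without a symbol (0.0232% to 0.0328% of counts) were left out. Counts were scaled by TMM, and CPM values are on that scale. After filterByExpr, 16546 genes were tested with edgeR 4.0.16 (R 4.3.3) by the robust quasi-likelihood test, with 1 mean per group, all 12 libraries in the fit and no covariates. The common biological coefficient of variation was 0.267. Genes with a Benjamini-Hochberg adjusted p under 0.05 over all genes tested passed; 7 comparisons were made, and those against the same blank or WT libraries share them. Gene positions, exon lengths and overlaps are from the GENCODE annotation of GRCm38.

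Full values are given for members that passed in any comparison. Fold changes are also given for the 3 members with the smallest p in each (4 in the mean R300 response), among those with a mean count of at least 20. Values in the libraries are given for most of these. Of the other lists, most genes that passed are given with fold changes, and some with values in the libraries. The members and lists were chosen with earlier results of these data known. Alternatives were DESeq2 1.42.0, other normalizations, no minimum count, a fit of just the 2 groups of a comparison, a block for replicate numbers, a term for the libraries without Xist or only those with it, 1 library of each close R300 pair, and each library left out. The test of R300 responses between libraries with and without Xist was added after seeing the data, as was a block by number in the blank groups alone. Deviations of same-numbered WT and KO blank libraries from their group means correlated at 0.51, 0.53 and 0.56 (other pairs -0.37 to -0.16), so the numbers pair these libraries by the data, not by the labels.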

Additional observations from a re-analysis of the deposited data

How the results depend on the processing

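The count of members that passed was 1 for R300 in WT, 1 in KO and 3 in the mean of both. Genes that passed numbered 103, 138 and 603. DESeq2 gave 2, 2 and 7 members (355, 438 and 1222 genes). A term for the libraries without Xist gave 3, 3 and 4 members (347, 450 and 1492 genes), and the libraries with Xist alone 3, 2 and 5 (242, 290 and 1004 genes). The R300 groups of the latter fit are only the close pairs, so its counts may be too high. With 1 library of each close R300 pair, 0, 0 and 1 member passed (28, 34 and 158 genes). With only the groups compared, 0 members passed in WT (41 genes) and 0 in KO (43 genes); this fit could not be made for means over both genotypes or treatments or for the difference of responses. Without a filter on low counts 0 members passed in WT and 0 in KO, and in KO the RLE normalization and library totals alone also gave 0. Leaving out 1 library gave 0 to 2 members in WT (32 to 135 genes), 0 to 1 in KO (45 to 171 genes) and 2 to 4 in the mean (308 to 852 genes). For KO against WT no member passed in any alternative. The genes that passed numbered 0 in blank (4 with DESeq2, 1 without the filter, 1 with the Xist term), 0 after R300 (14 with DESeq2, 1 without the filter) and 1 in the mean (50 with DESeq2, 28 with the Xist term, 0 with the Xist libraries alone, 0 with 1 library of each close pair, and 1 to 10 with 1 library left out). With 1 library left out, the log2 fold change of Ccl3 in KO against WT blank cells ranged from -0.22 to 1.82, and the difference of responses from -1.52 to 0.52 for Ccl3 and from -1.46 to 1.02 for Ccl4; each turned sign without KO blank 2. Of 715 alternative values of 35 named results, 614 kept their side of the threshold, 70 no longer passed, 28 newly passed and 3 turned sign. Many of the 614 belong to results that had not passed in the main fit, so they do not measure how stable the calls were. The 70 all come from results that had passed. Among these, Ccr7 was kept in 11 of 21 fits in WT and 6 of 21 in KO, and Ackr3 in 8 of 20 in the mean. In the mean Ccr7 was kept in 20 of 20 and Ccr1 in 19 of 20. The cause of these shifts was not tested. Outside the blank groups, the replicate numbers did not pair the samples: same-numbered libraries correlated from -0.47 to 0.38 for R300 in WT, from 0.00 to 0.61 in KO and from -0.60 to 0.32 between genotypes after R300. A replicate block over all 12 libraries gave 1 member in WT (119 genes), 0 in KO (141 genes) and 3 in the mean (667 genes). For KO against WT in blank cells, where the numbers pair the samples, 0 members and 0 genes passed with the block over all libraries or over the blank groups alone. The scalings moved the median of all genes by at most 0.07 on the log2 scale. Members at a few CPM or less, such as Ackr3 in blank cells, Ccl8, Ccl17, Cxcl5 and Cxcl9, rest on few counts.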

Other observations

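Blank library 2 of both genotypes stood out for the ligands, and that of KO the most. KO blank 2 was the highest of the 12 libraries for 9 of the 29 tested members, all of them ligands (Ccl3, Ccl4, Ccl6, Ccl7, Ccl9, Ccl22, Cxcl1, Cxcl2 and Cxcl3), which is 31% of the members, and for 12% of all genes tested. It was at least 2-fold above both other KO blank libraries for 10 members (34.5%) and for 2.86% of genes. Cxcl1 was at 453 CPM there and at 48.3 and 107 CPM in the other 2, Cxcl2 at 2050 against 316 and 618 CPM, and Cxcl3 at 551 against 130 and 48.9 CPM. Tnf was at 434 CPM against 113 and 106 CPM. Of the receptors, Ccr3 was at 29.1 against 12.2 and 2.38 CPM, while Ccr7 was at 18.7 against 11.2 and 10.8 CPM, Cxcr4 at 87.8 against 69.0 and 114 CPM and Cmklr1 at 216 against 333 and 188 CPM. The 6 B cell markers held 241 CPM in this library and 268 CPM in WT blank 2, against 55.6 to 124 CPM in the 10 others. WT blank 2 was the highest library for 6 members (20.7%), among them Ccl5, Cxcl10 and Cxcl16, and for 10.6% of genes. That count was not particular to it, as KO R300 1 was also the highest for 6 members (20.7%), 3 of them ligands, and for 9.33% of genes. Within the WT blank group WT blank 2 was also the highest for Ccl3, Ccl4, Ccl6, Ccl9, Ccl22, Cxcl1, Cxcl2 and Cxcl3, though not for Ccl7. In WT blank 2 Cxcl1 was at 148 CPM against 19.0 and 86.3 CPM in the other WT blank libraries, and Cxcl2 at 1200 against 282 and 781 CPM. The 6 neutrophil markers held 215 CPM in KO blank 2 and 212 CPM in WT blank 2 against 117 to 163 CPM in the others, with Ly6g and Mpo at 0 in some libraries. The 7 T and NK cell markers held 4.16 and 4.74 CPM against 0.822 to 2.48 CPM, with Cd8a, Ncr1 and Klrb1c at 0 in some libraries. The part of these cells in the values was not tested.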
